A study of Mus musculus with 4 samples.

Results

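The genes described here are 10 components of the circadian clock or close partners of it, namely Per1, Per2, Cry1, Arntl, Nr1d1, Nr1d2, Dbp, Tef, Nfil3 and Bhlhe40. They were chosen by name, with earlier results of these data known. Each was represented by 1 probe set that the platform annotation assigns to that gene alone. In this way 10 of 19937 genes with such a probe set are considered. Expression was measured on 4 Affymetrix Mouse Gene 1.0 ST arrays, with RNA of resting CD4 T cells of the mouse spleen, 2 of wild-type (WT) and 2 of Ifitm-/- cells. Per the labels, the animals were adults of 6 to 8 weeks in both groups, the cells were not stimulated, and the spleen cells of both genotypes went through lysis of red cells and negative selection for CD4. The Ifitm-/- mice, called IfitmF-/- by the study, lack the whole Ifitm family in all cells and not only in T cells. They are described as C57BL/6, with cells of a pair of animals pooled before each hybridisation, and the replicates come from separate purifications. The hour at which spleens were taken is not given in the sources used here. All values are log2 RMA intensities, a background-corrected and normalized probe brightness, and all changes are Ifitm-/- minus WT on that scale. A gene is said to have fallen or risen, or to be called, where limma's adjusted p over all probe sets was under 0.05.

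The circadian clock is a feedback loop of transcription factors that runs in nearly every cell, lymphocytes included. BMAL1, the product of Arntl, pairs with CLOCK at E-box sequences and drives Per, Cry, Nr1d and Dbp genes; PER and CRY proteins then return to the nucleus and repress that pair. The REV-ERB receptors, encoded by Nr1d1 and Nr1d2, compete with ROR receptors at a shared element and repress Arntl, Cry1 and Nfil3. A further layer acts at the D-box, where DBP and TEF activate and NFIL3 represses, and BHLHE40 (DEC1) represses at E-boxes. Several of these genes, among them Per1, Nfil3 and Bhlhe40, are also known to be induced by outside signals, and NFIL3 and BHLHE40 have roles of their own in cytokine expression by T cells.

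The promoters of 8 of the 10 genes were found in RefSeq tables of the build GRCm38.p6, as 11 windows of 300 bases that run from 250 before a transcription start to 50 from the start on, written 5′ to 3′ on the strand of the gene. Per2 and Bhlhe40 were not among them. Each was searched on both strands for the E-box (CACGTG), the D-box (TTANGTAA), a broad form of the REV-ERB and ROR element (TNGGTCA) and the cyclic AMP response element (TGACGTCA). Of all 32851 promoter windows, 7.15% held the E-box, 2.32% the D-box, 11% the REV-ERB and ROR letters and 1.79% the cyclic AMP response element. The E-box was in the windows of Per1, Cry1 and Tef, and the REV-ERB and ROR letters in those of Arntl, Tef and Nfil3. No window of the 8 genes held the D-box or the cyclic AMP response element, which says only that these letters are not in these windows. No match overlapped a match to another motif, and the windows of the 2 Arntl starts share most of their bases. A match is a description of sequence and not a measured binding site. The following sequences are shown because they place genes with the same element on both sides of the result. Per1 fell and Cry1 was not called although both have an E-box, and Nfil3 fell and Arntl was not called although both have the REV-ERB and ROR letters. Ciart, a clock repressor gene outside the 10, fell and held 3 E-boxes. Capitals mark the motifs. The windows are chr11:69098699-69098998 on the plus strand for Per1, chr10:85185005-85185304 on the minus strand for Cry1, chr13:52980990-52981289 on the minus strand for Nfil3, chr7:113207261-113207560 on the plus strand for Arntl, and chr3:95882179-95882478 on the minus strand for Ciart.
Per1: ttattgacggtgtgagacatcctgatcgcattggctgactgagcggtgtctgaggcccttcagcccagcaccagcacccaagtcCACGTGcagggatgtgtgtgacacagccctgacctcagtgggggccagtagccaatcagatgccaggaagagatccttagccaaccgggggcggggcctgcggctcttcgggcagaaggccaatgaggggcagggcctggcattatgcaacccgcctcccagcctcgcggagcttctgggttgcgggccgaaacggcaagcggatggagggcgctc
Cry1: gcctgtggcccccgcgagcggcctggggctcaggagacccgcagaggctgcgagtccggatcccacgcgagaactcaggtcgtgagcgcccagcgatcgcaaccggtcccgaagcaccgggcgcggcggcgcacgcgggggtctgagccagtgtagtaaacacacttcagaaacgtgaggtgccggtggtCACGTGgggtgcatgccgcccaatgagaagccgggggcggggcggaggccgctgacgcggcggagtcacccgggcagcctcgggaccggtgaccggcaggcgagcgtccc
Nfil3: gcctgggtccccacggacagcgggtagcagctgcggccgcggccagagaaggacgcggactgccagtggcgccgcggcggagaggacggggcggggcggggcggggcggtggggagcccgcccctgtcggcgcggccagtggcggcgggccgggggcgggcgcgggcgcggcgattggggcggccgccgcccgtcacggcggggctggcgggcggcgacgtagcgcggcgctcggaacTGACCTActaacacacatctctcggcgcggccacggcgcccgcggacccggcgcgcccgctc
Arntl: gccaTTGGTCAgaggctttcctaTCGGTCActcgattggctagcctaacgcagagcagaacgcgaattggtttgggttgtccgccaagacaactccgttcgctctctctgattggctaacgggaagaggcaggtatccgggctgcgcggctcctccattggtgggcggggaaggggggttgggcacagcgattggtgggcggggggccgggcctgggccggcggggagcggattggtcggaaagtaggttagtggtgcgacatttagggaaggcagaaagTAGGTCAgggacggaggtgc
Ciart: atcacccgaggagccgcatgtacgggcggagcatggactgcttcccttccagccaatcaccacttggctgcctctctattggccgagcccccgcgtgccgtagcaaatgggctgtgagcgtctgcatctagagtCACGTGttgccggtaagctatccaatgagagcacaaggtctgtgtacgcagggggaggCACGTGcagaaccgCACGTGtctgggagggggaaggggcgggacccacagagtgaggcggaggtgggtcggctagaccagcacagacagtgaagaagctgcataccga
In Per1 the E-box lay 166 bases before the start shown, while the window of a second listed start held none of the motifs. In Cry1 it lay 60 bases before the start. The element of Nfil3 lay 12 bases before the start and reads TAGGTCA on the opposite strand. Arntl had the same TAGGTCA 31 bases into the transcript, with looser matches upstream.

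The changes that passed the test among these genes all ran one way. Of the 10 genes, 5 fell (Bhlhe40, Per1, Nfil3, Nr1d2 and Per2) and 0 rose, where 3.61% of all genes tested were called lower, 4.96% higher and 8.57% in either direction. The median change of the 10 was -0.69, compared with -0.02 over all genes. Because the genes were chosen with earlier results known, such comparisons with all genes describe the 10 and do not test them. The study's methods further ask that a gene differ by more than 2-fold and span 250 or more linear units over the arrays, and 4 of the 10 met this against 1.28% of all genes. The arrays of the genotypes did not overlap for 8 of the 10, a weaker criterion that 58.7% of all genes met. None of the 10 was among the dimmest probe sets, since at least 59.7% of all probe sets were dimmer on every array.

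**Figure D1:**
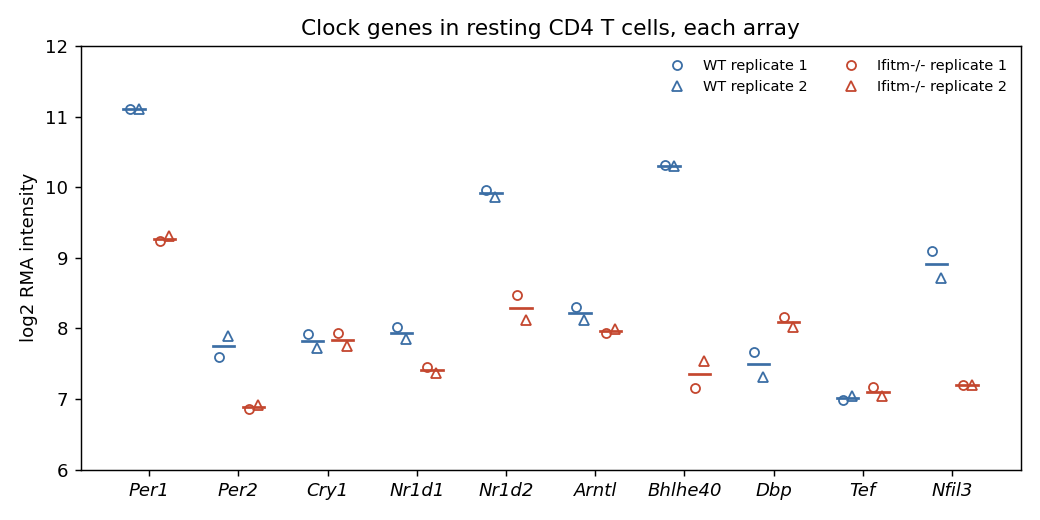
Log2 RMA intensity (y axis) of the 10 genes (x axis) on each array. Blue marks are WT and red marks Ifitm-/- arrays, circles are replicate 1, triangles replicate 2, and bars are group means. Per1, Nr1d2, Bhlhe40 and Nfil3 show the widest gaps between genotypes, and the marks of Cry1 and Tef overlap.

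Among the repressors of CLOCK and BMAL1, Per1 and Per2 fell and Cry1 was not called. Per1 was at 11.10 on both WT arrays and at 9.23 and 9.31 on the Ifitm-/- arrays. Its fall of 3.56-fold (change -1.83, 95% interval -2.05 to -1.62; adjusted p = 0.0107) was far wider than the spread of the arrays within either genotype. Per2, a paralog of Per1, was at 7.60 and 7.90 in WT and 6.87 and 6.91 in Ifitm-/- cells. It fell 1.82-fold (change -0.86, interval -1.20 to -0.52; adjusted p = 0.0338), with no overlap between genotypes although the WT arrays differed from each other. Cry1, whose protein is the strongest repressor of the loop, was at 7.92 and 7.72 in WT and 7.93 and 7.76 in Ifitm-/- cells. Its arrays overlapped completely, and the interval of the change ran from -0.29 to 0.33 (change 0.02; adjusted p = 0.941), so the falls seen for Per1 and Per2 lie outside it.

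The activator Arntl was read at 8.31 and 8.12 in WT and 7.93 and 7.99 in Ifitm-/- cells. The Ifitm-/- arrays were both the lower, but the gap between the genotypes was narrower than the difference between the WT arrays, and the change of -0.25 was not called (interval -0.52 to 0.01; adjusted p = 0.205). Its partner Clock, on the list of other clock factors, was at 8.53 and 8.47 in WT and 8.51 and 8.58 in Ifitm-/- cells, with overlapping arrays (change 0.04; adjusted p = 0.784).

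The REV-ERB genes were both lower, and the test called 1 of them. Nr1d2, which encodes REV-ERBβ, was at 9.96 and 9.87 in WT and 8.47 and 8.12 in Ifitm-/- cells. It fell 3.07-fold (change -1.62, interval -2.0 to -1.24; adjusted p = 0.016), and the lowest WT array stood well above the highest Ifitm-/- array. Nr1d1, which encodes REV-ERBα, was at 8.02 and 7.85 in WT and 7.45 and 7.37 in Ifitm-/- cells, a change of -0.53 (interval -0.79 to -0.26) that narrowly missed the threshold (adjusted p = 0.0519). The call of Nr1d1 depends on the setting, since its adjusted p was 0.0476 with trend and robust eBayes and 0.0256 when only probe sets of 1 gene were tested. Within each array the log2 difference between Nr1d1 and Nr1d2 moved by 1.09 between the genotypes, against 0.078 between the WT arrays and 0.26 between the Ifitm-/- arrays, so the change was unequal in the pair. Equal values of the 2 probe sets would not mean equal RNA, so that only the shift is given.

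Of the D-box factors, Nfil3 fell and neither activator was called. Nfil3, the repressor of this layer, was at 9.10 and 8.71 in WT and at 7.20 on both Ifitm-/- arrays. It fell 3.27-fold (change -1.71, interval -2.12 to -1.31; adjusted p = 0.0161), and the spread that exists is between the WT arrays. Dbp, an activator whose transcript is among the most strongly cycling of many tissues, was at 7.67 and 7.31 in WT and 8.17 and 8.02 in Ifitm-/- cells. Both Ifitm-/- arrays were above both WT arrays, but the change of 0.60 was not called (interval 0.20 to 1.01; adjusted p = 0.0904). Tef, the other activator, was at 6.99 and 7.04 in WT and 7.17 and 7.04 in Ifitm-/- cells, with overlapping arrays (change 0.09, interval -0.15 to 0.33; adjusted p = 0.584). Within each array the log2 difference of Nfil3 from Dbp moved by 2.31 between the genotypes, against 0.034 between the WT and 0.15 between the Ifitm-/- arrays. For Nfil3 and Tef the shift was 1.80, against 0.44 between the WT and 0.13 between the Ifitm-/- arrays.

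Bhlhe40 had the widest change of the 10 genes. It was at 10.31 and 10.29 in WT and 7.16 and 7.54 in Ifitm-/- cells. The fall was 7.73-fold (change -2.95, interval -3.35 to -2.55; adjusted p = 0.0115), and the difference between the Ifitm-/- arrays was small beside it. Over the 4 arrays, and among 9969 genes with a mean at or above the median of 6.41, the genes whose centred profile lay nearest to that of Bhlhe40 were Vps37b, Nr4a2 and Maff, at Euclidean distances of 0.24, 0.31 and 0.35 log2 units. With 4 arrays in 2 groups, such likeness mostly reflects the size of the change, which was -2.88, -2.68 and -2.63 for these genes.

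The other transcription factors of the clock were examined as a list of 11, of which 9 had a probe set of their own. Of these, 3 fell and 0 rose, against 3.61% and 4.96% of all genes, with a median change of -0.24. Rora, which encodes the activator that competes with the REV-ERB receptors, was at 9.58 and 9.76 in WT and 7.80 and 7.62 in Ifitm-/- cells (change -1.96; adjusted p = 0.0131). Ciart, which encodes the repressor CHRONO, was at 9.04 and 8.62 in WT and 6.83 and 6.90 in Ifitm-/- cells (change -1.96; adjusted p = 0.015). Cry2, the paralog of Cry1, fell less, from 7.72 and 7.71 to 7.29 and 7.17 (change -0.48; adjusted p = 0.0467). Bhlhe41 (DEC2), the paralog of Bhlhe40, was at 6.37 and 5.49 in WT and 4.55 and 4.95 in Ifitm-/- cells, and its change of -1.18 was not called (adjusted p = 0.116). The deleted Ifitm genes read 4.36 to 6.47 on the Ifitm-/- arrays, so the values of Bhlhe41 lie at the level of background in both genotypes. Arntl2, Per3, Rorb and Hlf, which like Bhlhe41 were dim, had changes of -0.04, -0.09, -0.23 and -0.24 and were not called.

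**Figure D2:**
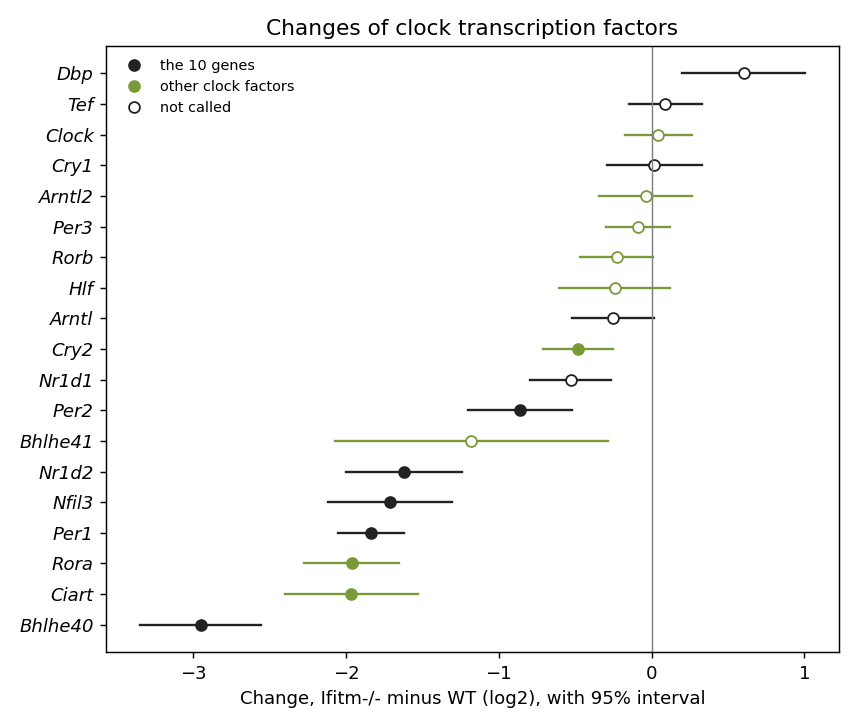
Change of each clock transcription factor (x axis, log2, Ifitm-/- minus WT) with its 95% interval from limma. Black marks are the 10 genes and green marks other clock factors, filled where called. Bhlhe40 lies lowest at -2.95 and Dbp highest at 0.60, with an open mark.

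Grouped by the element known to drive them, 10 genes known chiefly as E-box targets held 4 that fell (Per1, Per2, Nr1d2 and Ciart) and 0 that rose, with a median change of -0.69. This group was not uniform, because Nr1d1, Dbp, Tef, Per3, Hlf and Bhlhe41 belong to it as well and were not called. Over all genes, 3.61% were called lower and 4.96% higher. Of 4 measured genes known as targets of the REV-ERB and ROR element, 1 fell, Nfil3, and the median was -0.12, while Arntl, Clock and Cry1 were not called. The medians depend on where a gene is placed. Cry1 was put in the second group although its window held an E-box and no REV-ERB and ROR letters. Cry2 was in neither group. Bhlhe40, with a change of -2.95, was in neither as well, while its paralog Bhlhe41 was in the first. The difference between the groups was not tested.

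Transcripts of proteins that modify, degrade or assist the clock factors moved less. Of 19 measured of 24 listed, 4 fell and 0 rose, against 3.61% and 4.96% of all genes, and the median change was 0.01. The deubiquitinase gene Usp2, itself a cycling transcript, was at 7.72 and 7.71 in WT and 6.73 and 6.86 in Ifitm-/- cells (change -0.93; adjusted p = 0.018). The histone demethylase gene Kdm5a (-0.69), the acetyltransferase gene Kat5 (-0.55) and the deacetylase gene Sirt1 (-0.43) were the others, with adjusted p values of 0.0454, 0.0437 and 0.0481. The casein kinase genes Csnk1d and Csnk1e, whose products phosphorylate PER proteins, had changes of -0.39 and -0.43 and missed the threshold (adjusted p = 0.0592 and 0.0633). The ubiquitin ligase genes Btrc (0.51) and Fbxw11 (-0.38), which act on PER, were not called either (adjusted p = 0.0774 and 0.0864).

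Among genes known to cycle in many tissues, more were called lower than higher. Of 17 measured of 19 listed, 6 fell, 1 rose and 10 were not called, with a median change of -0.34. Over all genes, 3.61% were called lower and 4.96% higher. Coq10b was at 9.36 and 9.26 in WT and 7.25 and 7.57 in Ifitm-/- cells (change -1.90; adjusted p = 0.0141). The Krüppel-like factor genes Klf10 and Klf9 fell by 1.84 and 1.27 log2 units (adjusted p = 0.0138 and 0.0141). Nampt, the rate-limiting enzyme of NAD salvage and a textbook output of the clock, was at 10.17 and 10.06 in WT and 8.85 and 9.09 in Ifitm-/- cells (change -1.15; adjusted p = 0.0194). Lonrf3 (-0.56) and the lipase gene Pnpla2 (-0.51) were also called lower, and Tspo, a mitochondrial outer membrane protein gene, rose by 0.83 (adjusted p = 0.044, 0.0422 and 0.0207). Lonrf3 was dim, at 5.48 and 5.63 in WT and 4.95 and 5.03 in Ifitm-/- cells, all within the readings of the deleted Ifitm genes. The glucocorticoid-induced genes Tsc22d3 (-0.42) and Sgk1 (-0.33), the cell cycle kinase gene Wee1 (-0.43) and the cold-inducible gene Cirbp (-0.34) were not called, with adjusted p values of 0.0786, 0.139, 0.081 and 0.131.

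**Figure D3:**
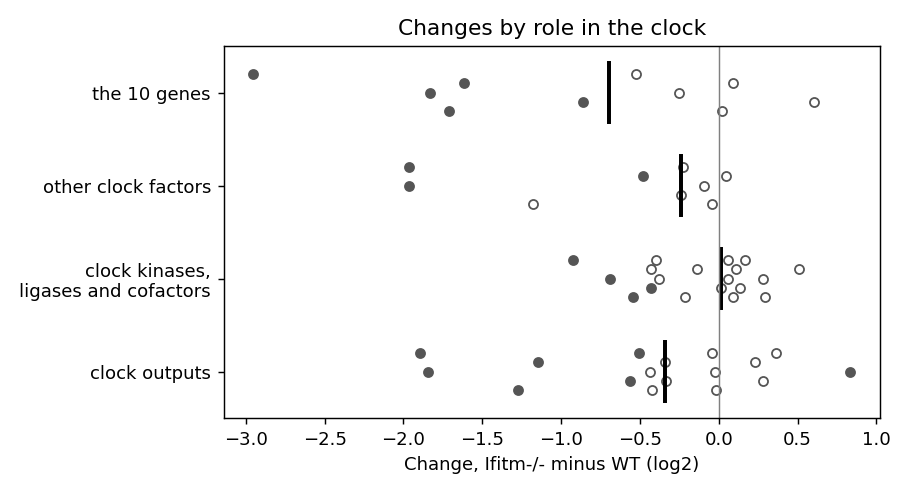
Changes (x axis, log2, Ifitm-/- minus WT) of the genes of 4 lists (y axis). Each circle is a gene, filled where called, with the median of each list as a black bar. The bars stand at -0.69 for the 10 genes, -0.24 for other clock factors, 0.01 for kinases, ligases and cofactors, and -0.34 for outputs.

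Of 7 measured genes linked to NFIL3 or BHLHE40 in lymphocytes, 3 fell and 0 rose, against 3.61% and 4.96% of all genes. The list does not sort genes by whether they are activated or repressed. A link to the changes of Nfil3 and Bhlhe40 was not tested. Il10 was at 7.45 and 7.43 in WT and 5.43 and 5.95 in Ifitm-/- cells, the latter within the range of the deleted Ifitm genes, so that its change of -1.75 may be a lower bound (adjusted p = 0.0215). Ifng changed by -0.65 (adjusted p = 0.0273) and the T-box factor gene Eomes by -0.79, at an adjusted p of 0.04995 that barely passed. Id2 (-0.26), Il13 (-0.23), Havcr2 (-0.10) and Csf2 (-0.01) were not called.

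Several features of the arrays bear on every value given here. Leaving out any 1 of the 4 arrays ended all calls on the array, with 0 of 34760 probe sets called in each of these fits and 6062 to 9107 at an unadjusted p under 0.05. The 10 genes therefore had 0 calls as well (6 to 7 at an unadjusted p under 0.05), with adjusted p values of 0.0681 to 0.139 for the 5 that had fallen, while all 5 kept their direction. Without WT replicate 1 the changes were -2.94 for Bhlhe40, -1.83 for Per1, -1.57 for Nr1d2, -1.52 for Nfil3 and -1.01 for Per2, without WT replicate 2 they were -2.96, -1.83, -1.66, -1.90 and -0.71, without Ifitm-/- replicate 1 -2.76, -1.79, -1.79, -1.71 and -0.84, and without Ifitm-/- replicate 2 -3.14, -1.87, -1.45, -1.71 and -0.88 in this order. The genotypes also differed in transcripts of the sex chromosomes, with Xist at 11.25 to 11.32 on the WT and 4.43 to 4.86 on the Ifitm-/- arrays and Eif2s3y at 3.90 to 4.05 and 9.48 to 9.61, so that sex and genotype cannot be told apart. Of the T cell markers that define the label, Cd4 read 11.44 to 11.79 and Cd3e 12.07 to 12.15 over the 4 arrays. The mean log2 level of the 7 measured was 11.18 to 11.22 in WT and 11.36 to 11.41 in Ifitm-/- cells. The arrays of the genotypes did not overlap for 6 of them, against 58.7% of all genes. Cd3g and Cd3d were called higher, with changes of 0.59 each (adjusted p = 0.0304 and 0.0284), and Cd28 lower, with a change of -0.74 (adjusted p = 0.0202).

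Markers of other cell types were read as well, and some moved with the genotype. As a measure for the calls given here, 3.61% of all genes were called lower and 4.96% higher. The mean log2 level of 9 B cell markers was 9.08 on WT replicate 1 and 7.58 to 8.00 on the others, with 0 called. That of 5 plasma cell markers was 8.87 to 9.23 in WT and 8.13 to 8.17 in Ifitm-/- cells, with 1 called lower (Xbp1), and that of 4 platelet markers was 8.54 to 8.99 and 9.15 to 10.47, with 0 called. The means of 5 erythroid markers were 8.33 to 8.99 in WT and 9.33 to 9.44 in Ifitm-/- cells with 0 called. Those of 7 neutrophil markers were 5.14 to 5.16 and 5.58 to 5.67, with 1 called higher (Retnlg). Retnlg was at 5.24 and 5.25 in WT and 6.94 and 7.21 in Ifitm-/- cells. The other neutrophil markers read 4.73 to 6.35, within the readings of the deleted Ifitm genes and so at the level of background. For 8 NK cell markers the means overlapped, at 7.33 to 7.70 and 7.56 to 7.73, with Nkg7 and Eomes called lower and 0 called higher. The median change of these 8 was 0.26. Klrd1, Ncr1, Klrb1c and Klrk1 had changes of 1.11, 0.75, 0.58 and 0.35 and were not called. Arrays of the genotypes did not overlap for 6 of the 8, 4 higher and 2 lower, against 58.7% of all genes. The means overlapped as well for 10 myeloid markers, at 8.20 to 8.86 and 8.26 to 9.04, and for 2 CD8 T cell markers, at 7.14 to 7.68 and 7.21 to 7.24, with 0 called in each. In RNA of a whole preparation, fewer cells of a type and less RNA per cell cannot be told apart. The part of these cells, of sex and of the hour of sampling, which is not given, in the changes of the clock genes was not tested.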

How the data were processed

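Total RNA of 4 samples, 2 WT and 2 Ifitm-/-, was hybridised to 1 array each. The deposited values are linear-scale intensities that the authors computed with RMA, which corrects background, normalizes by quantiles and summarises each probe set; RMA and affy are named in the submitters' processing notes and their versions are not given in the sources used here. Because the arrays were made alike, a shift shared by all genes would not be seen. The log2 of the authors' intensities was fitted in R 4.3.3 with limma 3.58.1, two-sided and with genotype as the only term (lmFit, eBayes), for all 34760 probe sets together, and p values were adjusted by Benjamini-Hochberg across the whole table. The script was tested on simulated data. Precision is limited by the number of arrays, which leaves 2 residual degrees of freedom. Intervals of 95% come from the same fit.

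The platform annotation named 1 gene for 21640 probe sets. Where a gene had several, the one of highest mean was used. Symbols were updated through the gene ID with a table of GRCm38.p6, in which 21553 were found, and listed genes without such a probe set were not analysed here. The 10 genes and all lists were chosen with earlier results of these data known. The text names the 10 genes, all other clock factors, called genes of the other lists with up to 4 more of smallest p, and the 3 genes nearest to the called gene of largest fall. Genes named from the marker lists were chosen after their values were seen. Alternatives were other eBayes settings, scalings, filters, tests and probe set rules, the replicate number as a block, and leaving out each array.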

Additional observations from a re-analysis of the deposited data

How the results depend on the processing

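The changes of the 10 genes kept their direction under every alternative run except for Cry1, whose change near 0 turned to -0.0095 with renewed quantile normalization and ranged from -0.080 to 0.12 when single arrays were left out. Nr1d1 became called at -0.53 with trend and robust eBayes, without dim probe sets, with probe sets of 1 gene and by the methods' t-test without adjustment, and at -0.49 with log2(value + 16). After Benjamini-Hochberg adjustment the methods' t-test called 0 genes of the 10, of the other clock factors, of the kinases, ligases and cofactors and of the outputs (6, 3, 10 and 9 at an unadjusted p under 0.05), at unchanged sizes of -1.83 for Per1, -0.86 for Per2, -1.62 for Nr1d2, -1.71 for Nfil3 and -2.95 for Bhlhe40. With the replicate number as a block, changes were the same and calls were again 0 in the 4 lists, with 7, 4, 9 and 10 at an unadjusted p under 0.05, adjusted p values of 0.0624 to 0.0783 for the 5 genes, and 0 of 34760 probe sets called. Deviations of same-numbered arrays correlated at -0.29. With 2 arrays per genotype, this cannot settle whether the numbers pair the samples. A crossed pairing, chosen after seeing the data, called 975 probe sets, 4 of the 10 genes and 2 of the other clock factors. It also called 1 of the kinases, ligases and cofactors and 4 of the outputs. Leaving out single arrays gave 0 calls among 34760 probe sets and so in each list (6 to 7 of the 10 genes at an unadjusted p under 0.05), with changes of -1.87 to -1.79 for Per1, -1.01 to -0.71 for Per2, -1.79 to -1.45 for Nr1d2, -1.90 to -1.52 for Nfil3 and -3.14 to -2.76 for Bhlhe40; 1 residual degree of freedom is left in these fits. Of the kinases, ligases and cofactors, 8 were called with probe sets of 1 gene, 10 by the unadjusted t-test and 0 with the fold and range criteria, under which 4 outputs passed. The cause of these differences was not tested. Dim genes such as Bhlhe41 and Il10 are limited by background.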
